A study of Homo sapiens with 18 samples.

Results

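The genes described here encode structural proteins of the extracellular matrix and the basement membrane: FN1, TNC, COL4A1, COL4A2, COL7A1, HSPG2, AGRN and DCN. They were chosen by symbol, as 8 of the 15896 genes in the deposited table, and DCN was chosen because it rose from near 0. All 8 are listed, and 7 of them lay far above the limit on low values in every library. DCN reached 1 CPM (reads per 1 M reads) in at least 3 libraries, the condition for a test, only through the 3 Ad-TEADi libraries of 48 h, so its values are described with no test.

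Polyadenylated RNA was sequenced from N/TERT2G cells, an immortalized human keratinocyte line. A day after plating, the cells were transduced at a multiplicity of infection of 25 with Ad-GFP, an adenovirus for green fluorescent protein, or with Ad-TEADi. TEADi is a nuclear fusion protein, green fluorescent protein joined to the parts of VGLL4, YAP1 and TAZ that bind TEAD transcription factors, and it keeps YAP1 and TAZ off TEAD. The groups are Ad-GFP and Ad-TEADi at 12, 24 and 48 h after transduction, with 3 libraries each and 18 in all. The cells of all 18 libraries were transduced with an adenovirus that encodes green fluorescent protein, alone or as part of TEADi. No untransduced group was analysed here, nor was the level of either protein. The study describes TEADi expression at 12 h as low. Between 14.2 and 26.7 M reads per library, with a median of 17.99 M, were assigned to the listed genes. The labels speak of triplicates only, and p-values therefore describe the scatter among these libraries, whether or not they came from separate cultures.

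Basal keratinocytes sit on a basement membrane, a sheet in which laminins and type IV collagen form separate networks that nidogens and the heparan sulfate proteoglycans perlecan and agrin link together. Anchoring fibrils of type VII collagen fasten that sheet to the dermis below. Fibronectin and tenascin-C belong to provisional matrix, which keratinocytes meet and partly make during wound repair, whereas decorin is a proteoglycan of dermal collagen fibrils that is made mainly by fibroblasts. YAP1 and TAZ act with TEAD factors to keep basal cells proliferating, and several matrix genes are known among their targets in other cells.

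Levels are the deposited TMM normalized CPM, in the order of replicates 1, 2 and 3 where 3 values are given, or as mean ± SD (n = 3). Changes are log2 differences of Ad-TEADi minus Ad-GFP ± SE from limma, taken on log2(CPM + 1), with p-values adjusted over 13417 tested genes. The words rose and fell are kept for genes called at an adjusted p under 0.05 with at least a 1.5-fold change. Comparisons that use the same libraries, such as the 24 h response and its change by 48 h, are not independent of each other.

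The start regions of 6 of the 8 genes were matched in RefSeq (GRCh38.p14), in windows of 300 bases from 250 before to 50 after the start site. COL4A1 and COL4A2 are shown first because the pair is read in opposite directions from neighbouring start sites. The start sites lie at 110307157 for COL4A1 and 110307284 for COL4A2 on chromosome 13, which is 127 bases apart. The windows share 226 bases, 75.3% of their length, as opposite strands of the same stretch. Capitals mark the bases between both start sites, chr13:110307108-110307407 on the minus strand for COL4A1 and chr13:110307034-110307333 on the plus strand for COL4A2.
COL4A1: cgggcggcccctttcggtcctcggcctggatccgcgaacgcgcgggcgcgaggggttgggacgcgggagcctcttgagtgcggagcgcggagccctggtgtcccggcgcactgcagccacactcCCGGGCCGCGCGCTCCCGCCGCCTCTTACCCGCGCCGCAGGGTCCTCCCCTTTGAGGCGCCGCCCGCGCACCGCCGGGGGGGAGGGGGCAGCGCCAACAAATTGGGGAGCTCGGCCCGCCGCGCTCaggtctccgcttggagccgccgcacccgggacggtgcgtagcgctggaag
COL4A2: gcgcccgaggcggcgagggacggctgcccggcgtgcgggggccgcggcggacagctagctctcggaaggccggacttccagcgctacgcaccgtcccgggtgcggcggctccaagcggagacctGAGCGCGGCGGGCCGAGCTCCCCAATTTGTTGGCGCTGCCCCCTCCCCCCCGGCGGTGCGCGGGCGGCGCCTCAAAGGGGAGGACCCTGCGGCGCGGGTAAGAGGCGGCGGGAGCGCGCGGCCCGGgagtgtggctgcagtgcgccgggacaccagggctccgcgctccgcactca

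FN1 and COL7A1 are shown because they were the tested members that passed both limits of the call at 48 h, in opposite directions. Capitals mark matches to the motifs searched, on either strand, in chr2:215436019-215436318 (FN1) and chr3:48595280-48595579 (COL7A1), both on the minus strand.
FN1: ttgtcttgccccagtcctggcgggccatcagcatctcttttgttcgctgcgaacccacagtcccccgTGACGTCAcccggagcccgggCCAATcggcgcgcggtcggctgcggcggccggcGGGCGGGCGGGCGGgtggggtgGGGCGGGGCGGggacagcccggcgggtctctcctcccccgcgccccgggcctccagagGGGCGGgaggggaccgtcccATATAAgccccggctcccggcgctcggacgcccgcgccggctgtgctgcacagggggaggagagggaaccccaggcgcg
COL7A1: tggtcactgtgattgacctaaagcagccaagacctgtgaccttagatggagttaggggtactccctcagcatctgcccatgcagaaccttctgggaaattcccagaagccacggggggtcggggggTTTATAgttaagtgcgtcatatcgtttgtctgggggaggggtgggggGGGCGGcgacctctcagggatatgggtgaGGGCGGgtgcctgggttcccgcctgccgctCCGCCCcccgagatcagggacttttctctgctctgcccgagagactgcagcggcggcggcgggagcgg

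The motifs searched on both strands were a TEAD motif (GGAATG), an AP-1 motif (TGANTCA) and a GC box (GGGCGG). Core promoter boxes spelled TATAAA or ATATAA were searched as well, besides a cyclic AMP response element (TGACGTCA) and a CCAAT box. FN1 held 6 GC boxes, some of them overlapping, a cyclic AMP response element at position -183 from the start site, CCAAT at -162 and ATATAA at -29. COL7A1 held 3 GC boxes and TATAAA at -124. The GC box was in all 6 windows, with 10 matches in HSPG2, and in 45.0% of 35116 RefSeq windows of this length. CCAAT was in FN1, COL4A1 and COL4A2 and in 34.6% of all windows, ATATAA was in FN1 and TNC and in 8.26%, TATAAA was in COL7A1 and in 11.5%, and the cyclic AMP response element was in FN1 and in 1.85%. Neither the TEAD nor the AP-1 letters occurred in any of the 6 windows, against 14.03% and 7.71% of all windows. GC content was 83.3% for HSPG2, 77.7% for COL4A2, 76.7% for COL4A1 and for FN1, 62.3% for COL7A1 and 57.3% for TNC, with a median of 58.7% over all windows. A match is a run of letters and no measured binding site, and its absence says only that those letters are not in these bases.

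Over exon length, FN1 was the most abundant member in every group, and DCN the least. In Ad-GFP at 48 h the levels in CPM per kb of exon were 1750 for FN1, 201 for AGRN, 134 for COL7A1, 81.1 for COL4A2, 66.9 for HSPG2, 43.0 for TNC, 30.7 for COL4A1 and 0.0223 for DCN. In Ad-TEADi at 48 h the order per kb was FN1 at 749, COL7A1 at 268, AGRN at 180, HSPG2 at 83.8, COL4A2 at 71.3, TNC at 63.3, COL4A1 at 33.6 and DCN at 1.22. The libraries of neighbours in these orders did not overlap at 48 h. COL7A1 stood above AGRN and HSPG2 above COL4A2 under Ad-TEADi, the reverse of Ad-GFP. COL7A1 and AGRN already differed in order at 12 h, at 165 and 144 CPM per kb in Ad-TEADi against 145 and 160 in Ad-GFP. Neighbours with overlapping libraries were HSPG2 and TNC at 12 h in both viruses, and AGRN and COL7A1 in Ad-TEADi at 24 h.

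FN1 encodes fibronectin, a glycoprotein that links integrins to collagens and other matrix proteins. It lies on chromosome 2 from 216225163 to 216300895 on the minus strand in hg19, the build of the deposited table. FN1 had the highest mean CPM of all 15896 genes over the 18 libraries, with no scaling by length. At 48 h KRT5 had the higher mean with both viruses, at 16993 CPM in Ad-GFP and 21077 in Ad-TEADi. At 12 h FN1 was at 21949, 25007 and 24904 CPM in Ad-GFP and at 23935, 23361 and 24188 in Ad-TEADi. At 24 h it was at 12605, 12605 and 12868 in Ad-GFP and at 11652, 9912 and 10098 in Ad-TEADi. At 48 h it was at 14532, 15056 and 14466 in Ad-GFP and at 6290, 6569 and 6002 in Ad-TEADi. The groups overlapped at 12 h, and every Ad-TEADi library lay below every Ad-GFP library at 24 and 48 h. FN1 fell at 48 h, with a log2 change of -1.22 ± 0.05 (adjusted p = 6.7e-13), or 2.34 times less transcript than in Ad-GFP. At 24 h the log2 change was -0.27 ± 0.05 (adjusted p = 0.00156), short of the fold limit, and at 12 h it was -0.01 ± 0.05 (adjusted p = 0.975). Its share of the summed CPM of all listed genes was 2.90% in the highest library, of Ad-GFP at 12 h, and 0.649% in the lowest, of Ad-TEADi at 48 h. In bulk RNA, fewer cells that make a transcript and less of it in each cell cannot be told apart.

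TNC encodes tenascin-C, a large multimeric glycoprotein of wound edges and remodelling matrix, on chromosome 9 from 117782806 to 117880536, minus strand. At 12 h TNC was at 359, 400 and 367 CPM in Ad-GFP and at 404, 377 and 389 in Ad-TEADi. At 24 h it was at 257, 276 and 271 in Ad-GFP and at 365, 419 and 402 in Ad-TEADi. At 48 h it was at 356, 381 and 360 in Ad-GFP and at 532, 550 and 532 in Ad-TEADi. The 12 h groups overlapped, and all Ad-TEADi libraries lay above all Ad-GFP libraries at both later times. TNC passed the adjusted p at 24 h (0.56 ± 0.05, adjusted p = 4.9e-10) and at 48 h (0.56 ± 0.05, adjusted p = 1.6e-11), at 1.47 times the Ad-GFP mean each time, just under the fold limit. It reached that limit at 24 h without Ad-TEADi replicate 1 (0.61) and at 48 h without Ad-GFP replicate 2 (0.59).

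**Figure D1:**
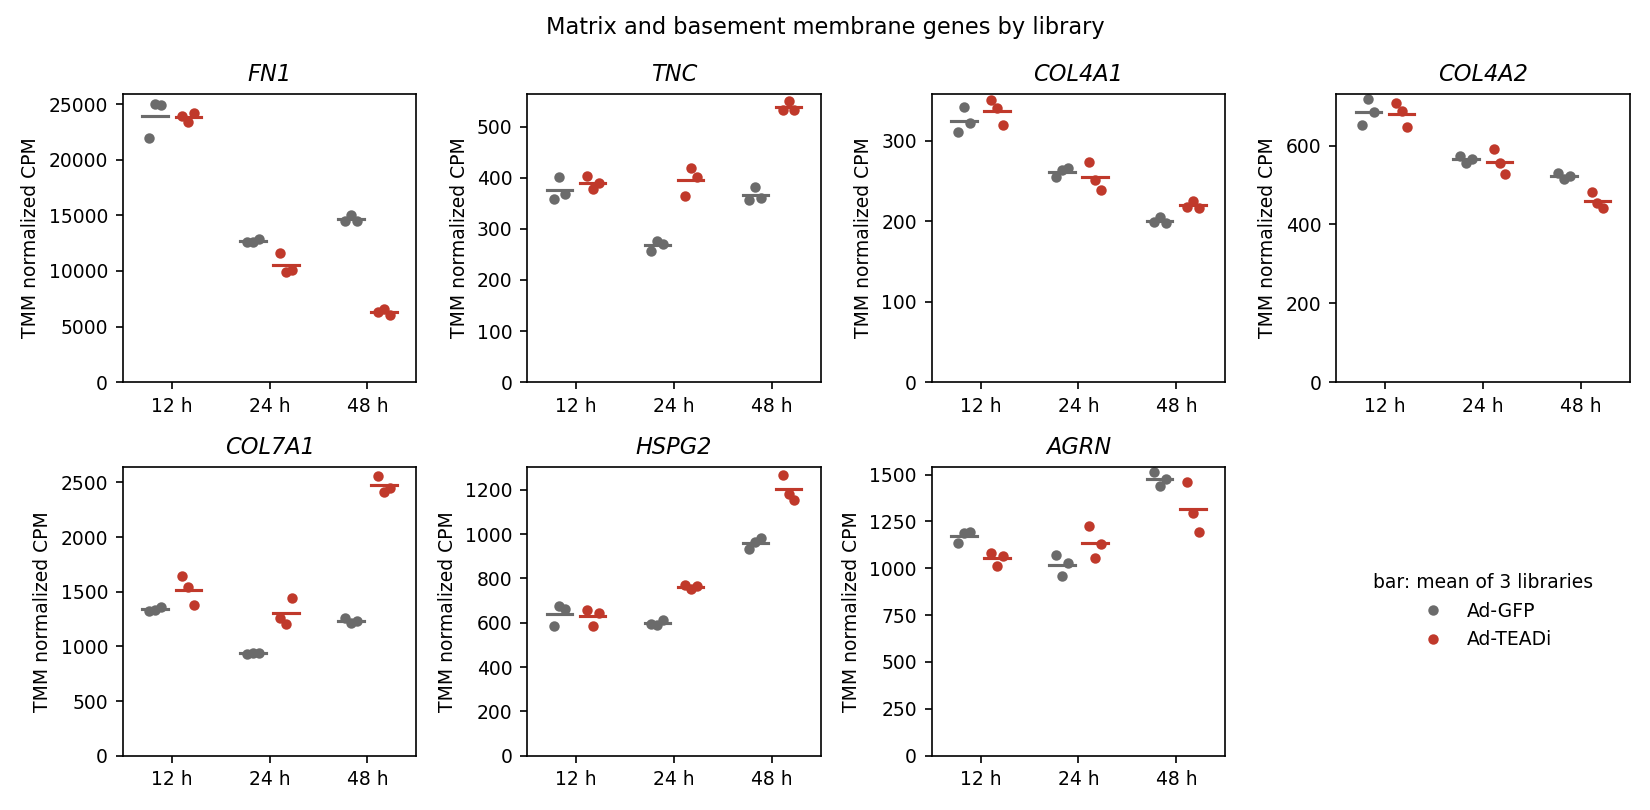
Deposited TMM normalized CPM of the 7 tested genes in each library (points) with group means (bars, n = 3), by time after transduction, for Ad-GFP (grey) and Ad-TEADi (red), each panel with its own axis from 0. FN1 at 48 h sits at 6002 to 6569 under Ad-TEADi and at 14466 to 15056 under Ad-GFP, COL7A1 sits at 2409 to 2559 against 1209 to 1261, and both COL4A1 and COL4A2 are lower at 48 h than at 12 h with either virus.

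COL7A1 encodes the chain of type VII collagen, the protein of anchoring fibrils, on chromosome 3 from 48601506 to 48632700, minus strand. At 12 h COL7A1 was at 1322, 1336 and 1364 CPM in Ad-GFP and at 1639, 1540 and 1378 in Ad-TEADi. At 24 h it was at 934, 941 and 940 in Ad-GFP and at 1260, 1206 and 1445 in Ad-TEADi. At 48 h it was at 1261, 1209 and 1235 in Ad-GFP and at 2559, 2409 and 2449 in Ad-TEADi. The groups did not overlap at any time, though Ad-TEADi replicate 3 of 12 h lay only just above the highest control. COL7A1 rose at 48 h to 2.001 times the Ad-GFP mean, with a log2 change of 1.0002 ± 0.06 (adjusted p = 3.8e-13). The change was 0.18 ± 0.06 at 12 h (adjusted p = 0.0976) and 0.47 ± 0.06 at 24 h (adjusted p = 1.5e-06, short of the fold limit). In limma the 12 h change passed the adjusted p on TPM values (0.26, adjusted p = 0.0443). It also passed without Ad-TEADi replicate 3 (0.25, adjusted p = 0.0204), short of the fold limit both times.

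The type IV collagen genes COL4A1 and COL4A2 encode the alpha-1 and alpha-2 chains, which combine into the common collagen network of basement membranes. COL4A1 lies on chromosome 13 from 110801318 to 110959496 on the minus strand and COL4A2 from 110958159 to 111165374 on the plus strand of hg19. Their listed spans overlap by 1338 bases, and reads there cannot be told apart unless strand was used in counting, on which the sources used here are silent. At 48 h COL4A1 was at 199, 206 and 197 CPM in Ad-GFP and at 217, 226 and 216 in Ad-TEADi. COL4A2 at that time was at 530, 516 and 523 in Ad-GFP and at 482, 455 and 441 in Ad-TEADi. Each gene's groups did not overlap at 48 h, COL4A1 being slightly higher and COL4A2 slightly lower under Ad-TEADi. Neither was called there, with log2 changes of 0.13 ± 0.05 (adjusted p = 0.0222) for COL4A1 and -0.19 ± 0.04 (adjusted p = 7.4e-04) for COL4A2.

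At 12 h the COL4A1 libraries were at 311, 342 and 322 CPM in Ad-GFP and at 351, 341 and 320 in Ad-TEADi, and at 24 h at 255, 264 and 266 and at 274, 251 and 239. COL4A2 was at 652, 718 and 684 in Ad-GFP and at 709, 687 and 648 in Ad-TEADi at 12 h, and at 575, 555 and 566 and at 592, 555 and 528 at 24 h. The groups of both genes overlapped at these times. At 24 h the 95% interval of the log2 change ran from -0.14 to 0.05 for COL4A1 and from -0.11 to 0.07 for COL4A2, well inside the fold limit.

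The ratio of COL4A2 to COL4A1 gave the relative level of the paired genes within each library. At 48 h it was 2.66, 2.51 and 2.65 under Ad-GFP and 2.22, 2.02 and 2.04 in Ad-TEADi, with means of 2.61 ± 0.0847 and 2.09 ± 0.109. The groups did not overlap, and an exact two-sided permutation test gave p = 0.1, the smallest p that 3 against 3 libraries allow. At 24 h the ratio was 2.16 ± 0.0833 in Ad-GFP and 2.19 ± 0.0305 in Ad-TEADi (exact permutation p = 0.6). At 12 h it was 2.11 ± 0.0169 and 2.02 ± 0.00745 (exact permutation p = 0.1). After Benjamini-Hochberg adjustment over these 3 comparisons the values were 0.15 for 12 h, 0.6 for 24 h and 0.15 for 48 h. The Ad-GFP libraries of 48 h held the highest ratios of all 18.

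**Figure D2:**
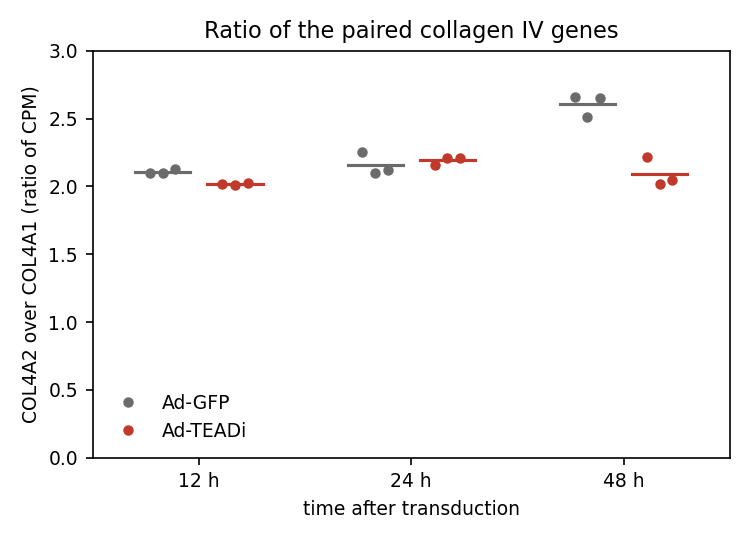
Ratio of COL4A2 to COL4A1 in CPM for each library (points) with group means (bars, n = 3), by time, Ad-GFP in grey and Ad-TEADi in red. The 3 Ad-GFP libraries of 48 h lie between 2.51 and 2.66, above the 3 Ad-TEADi libraries of that time at 2.02 to 2.22.

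HSPG2 and AGRN encode perlecan and agrin, heparan sulfate proteoglycans that bind laminins, growth factors and cell surface receptors. HSPG2 lies on chromosome 1 from 22148738 to 22263790 on the minus strand. At 12 h it was at 585, 675 and 661 CPM in Ad-GFP and at 656, 587 and 642 in Ad-TEADi. At 24 h HSPG2 was at 596, 590 and 611 in Ad-GFP and at 768, 752 and 767 in Ad-TEADi, and at 48 h at 932, 965 and 982 and at 1269, 1181 and 1155. Its groups overlapped at 12 h and not later. HSPG2 passed the adjusted p with small changes of 0.35 ± 0.05 at 24 h (adjusted p = 1.8e-06) and 0.32 ± 0.05 at 48 h (adjusted p = 7.4e-07), and was not called.

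AGRN lies on chromosome 1 from 955503 to 991496 on the plus strand. At 12 h AGRN was at 1134, 1188 and 1194 CPM in Ad-GFP and at 1083, 1013 and 1066 in Ad-TEADi. At 24 h it was at 1071, 959 and 1028 in Ad-GFP and at 1228, 1053 and 1127 in Ad-TEADi, and at 48 h at 1512, 1438 and 1474 and at 1462, 1295 and 1194. The Ad-TEADi libraries were the lower at 12 h without overlap, while the groups overlapped at 24 and 48 h. No AGRN comparison between the viruses was called, with log2 changes of -0.15 ± 0.06 (adjusted p = 0.211), 0.15 ± 0.06 (adjusted p = 0.102) and -0.17 ± 0.06 (adjusted p = 0.0338) at 12, 24 and 48 h. The 3 Ad-TEADi libraries of 48 h spread over 10.3% (SD over mean), the widest of the 7 tested genes in any group.

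DCN encodes decorin, a small leucine-rich proteoglycan that binds collagen fibrils and growth factors, on chromosome 12 from 91539025 to 91576900, minus strand. At 12 h DCN was at 0.217, 0.299 and 0.181 CPM in Ad-GFP and at 0.361, 0.196 and 0.235 in Ad-TEADi. At 24 h it was at 0.1003, 0.0515 and 0.114 in Ad-GFP and at 0.145, 0.393 and 0.305 in Ad-TEADi. At 48 h it was at 0.152, 0.130 and 0.178 in Ad-GFP and at 7.83, 6.90 and 10.3 in Ad-TEADi. The values include the read that the authors added to every gene. The 3 Ad-TEADi libraries of 48 h stand far above the other 15, whose highest value was 0.393.

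In estimated reads, the 18 DCN values were 3, 5 and 2 in Ad-GFP and 6, 3 and 4 in Ad-TEADi at 12 h, 1, 0 and 1 and then 2, 7 and 8 at 24 h, and 2, 2 and 3 and then 151, 155 and 184 at 48 h. A count of 2 estimated reads plus the added read corresponds to between 0.102 and 0.181 CPM in these libraries. The control values are thus near the limit of detection. Summed over libraries and scaled by depth, DCN at 48 h had 7 reads under Ad-GFP against 490 under Ad-TEADi, a ratio of 76.3. At 24 h the sums were 2 and 17 reads, a ratio of 6.84. At 12 h they were 10 and 13 reads, a ratio of 1.17. These ratios rest on pooled reads, few of them outside Ad-TEADi at 48 h, and were not tested. The ratio of mean CPM at 48 h, which holds the added read, was 54.5, from 0.153 ± 0.0241 to 8.34 ± 1.75, and it ranged from 48.1 to 59.3 when each 48 h library was left out. Per kb of exon, the 48 h level of DCN under Ad-TEADi, 1.22 CPM, was below that of every other member in any group.

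**Figure D3:**
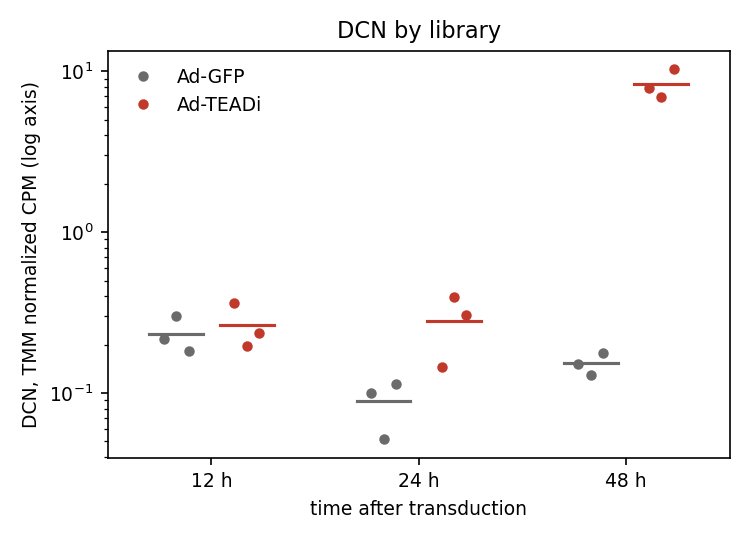
DCN in deposited TMM normalized CPM on a log axis for each library (points) with group means (bars, n = 3), by time after transduction, Ad-GFP in grey and Ad-TEADi in red. Of the 18 libraries, 15 lie at or under 0.393 CPM and the 3 Ad-TEADi libraries of 48 h lie between 6.90 and 10.3.

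Since DCN is mainly a fibroblast gene, fibroblast markers were read beside it. Of 17 listed markers, 11 are in the table and 8 could be tested, of which COL1A1 and FBLN1 rose and THY1 and MFAP5 fell at 48 h. Over all tested genes 6.27% were called higher and 6.3% lower at that time. COL3A1, a fibrillar collagen that fibroblasts make in quantity, had 9 reads in the 3 Ad-GFP libraries and 14 in the 3 Ad-TEADi libraries. COL6A3 had 3 and 7, and TWIST1 went the other way with 30 and 13. The summed level of the 11 markers was 1053 to 1099 CPM with Ad-GFP and 1019 to 1054 with Ad-TEADi at 48 h, and VIM alone gave 873 ± 27.1 and 880 ± 14.5 of that. The remaining 6 markers were not analysed here, and the part of other cells in the DCN values was not tested beyond these levels. Of the 10 keratinocyte markers all were measured, KRT5 at 16993 ± 318 CPM with Ad-GFP and 21077 ± 764 with Ad-TEADi. Among these 10, DSG3 and DSC3 rose, against the same 6.27% of all tested genes. Few markers of other cell types were listed, namely 2 of 7 for melanocytes, 2 of 6 for endothelium, 3 of 6 for smooth muscle and pericytes and 3 of 7 for immune cells. Among them CSPG4 rose (12.7 ± 1.18 to 45.3 ± 2.52 CPM) and MITF fell. CD14 went from 0.186 ± 0.0608 CPM (9 reads) to 1.21 ± 0.117 (69 reads). At 48 h CD14 met the limit of 1 CPM for a test only under Ad-TEADi, so its change is described with no call.

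Taking the 7 tested genes at each time, 0 were called at 12 h by limma, against 0.0447% of all tested genes. Of the 7, 0 passed the adjusted p alone, against 1.1%. An unadjusted p under 0.05 in limma was found for 2 (COL7A1 and AGRN), beside 2436 of all 13417 tested genes. At 24 h 0 of 7 were called by limma, against 1.79% of all genes. An unadjusted p under 0.05 was found for 5, beside 4025 of all 13417 tested genes. TNC, COL7A1, HSPG2 and FN1 passed the adjusted p alone, 4 of 7 against 17.9%, and had the same direction at 48 h. At 48 h 2 of 7 were called against 12.6%, with 1 rise against 6.27% and 1 fall against 6.3%. All 7 passed the adjusted p alone, a condition met by 50.5% of all genes. On TPM values 4 of 7 did, without COL4A1 (adjusted p = 0.108), COL4A2 (0.201) and AGRN (0.269) in limma, and with median-of-ratios scaling AGRN did not (0.0802). With no trend and no robust option COL4A1 (0.0610) and AGRN (0.0636) missed it. AGRN (0.0510) missed it too when only the libraries of the groups compared were fitted. COL4A1 also missed it without Ad-GFP replicate 1 (0.0631), Ad-GFP replicate 3 (0.0752) or Ad-TEADi replicate 2 (0.0943), and AGRN without any of these (0.101, 0.0709 and 0.0883) or without Ad-TEADi replicate 3 (0.165). Groups did not overlap for 2, 4 and 6 of the 7 at 12, 24 and 48 h, against 21.9%, 34.2% and 58.6% of all tested genes. The median log2 change of the 7 at 48 h was 0.13, beside -0.03 over all tested genes.

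**Figure D4:**
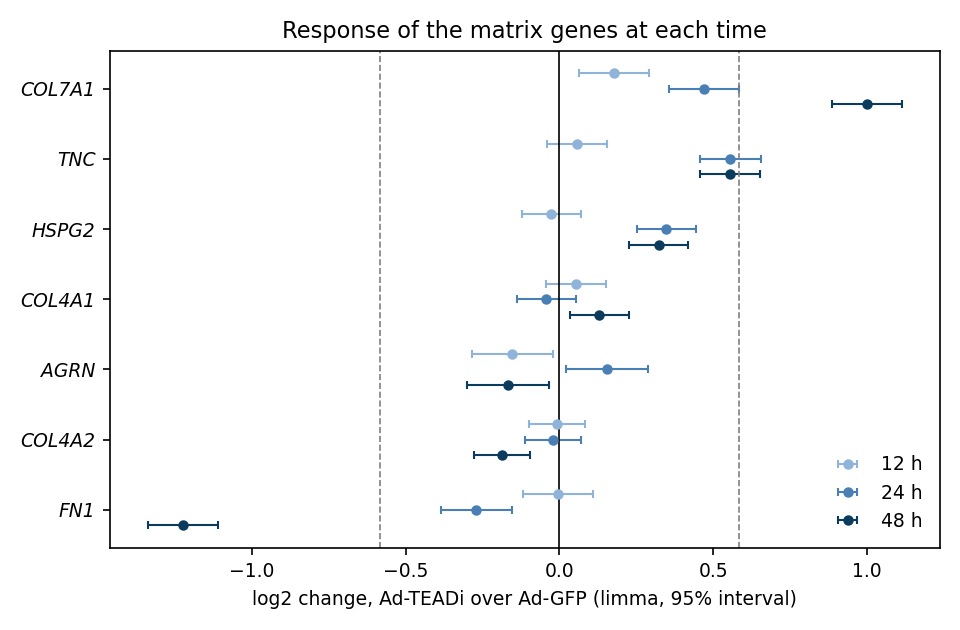
Log2 change of Ad-TEADi over Ad-GFP from limma (points) with 95% intervals (bars) for the 7 tested genes at 12, 24 and 48 h, in deepening blue, with dashed lines at the 1.5-fold limit. At 48 h COL7A1 at 1.0002 and FN1 at -1.22 lie beyond the lines, TNC at 0.56 lies just inside at both 24 and 48 h, and HSPG2, COL4A1, AGRN and COL4A2 lie between -0.19 and 0.35 at every time.

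Subtracting the 24 h response from that of 48 h showed how the changes differed between these times. For FN1 it was -0.95 ± 0.08 (adjusted p = 4.3e-08), the only one of 7 called, against 6.06% of all tested genes. The COL7A1 difference was 0.53 ± 0.08 (adjusted p = 2.3e-05), under the fold limit, and it passed that limit without Ad-TEADi replicate 3 of 24 h (0.61) and on TPM values (0.59). For AGRN, whose change was 0.15 at 24 h and -0.17 at 48 h, the difference was -0.32 ± 0.09 (adjusted p = 0.0143). With it 3 of 7 passed the adjusted p alone, against 20.8% of all genes. In limma AGRN missed it on TPM values (0.157) and when only the libraries of the groups compared were fitted (0.0590). TNC and HSPG2 had differences near 0, with 95% intervals from -0.14 to 0.14 and from -0.16 to 0.11. COL4A1 (0.17 ± 0.07) and COL4A2 (-0.17 ± 0.06) did not pass the adjusted p (0.0662 and 0.0587) in the reported fit. In limma COL4A1 passed it with median-of-ratios scaling (0.0226) and without Ad-TEADi replicate 1 of 24 h (0.0142). COL4A2 passed it when only the libraries of the groups compared were fitted (0.0434). It also passed without Ad-TEADi replicate 3 of 24 h (0.0236) or replicate 1 of 48 h (0.0191).

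Levels also moved with time in each virus, in comparisons that share libraries with those above. Under Ad-GFP between 12 and 48 h, FN1 (-0.70 ± 0.05, adjusted p = 2.6e-09) and COL4A1 (-0.69 ± 0.05, adjusted p = 7.3e-14) fell and HSPG2 rose (0.59 ± 0.05, adjusted p = 3.9e-12), 3 of 7 against 13.6% of all genes. The HSPG2 call sat at the fold limit and was lost without Ad-GFP replicate 1 of 12 h (0.52), replicate 2 of 48 h (0.58) or replicate 3 of 48 h (0.57), with median-of-ratios scaling (0.56), with a pseudocount of 5 (0.58) and on TPM values (0.31). The COL4A1 call was lost on TPM values as well (-0.56), and kept on TPM values with no pseudocount. AGRN (0.33 ± 0.06) and COL4A2 (-0.39 ± 0.04) also passed the adjusted p, 5 of 7 in all against 56% of all genes, while COL7A1 (-0.12 ± 0.06, adjusted p = 0.0730) and TNC (-0.04 ± 0.05, adjusted p = 0.537) did not. On TPM values COL7A1 (-0.34, adjusted p = 1.2e-04) and TNC (-0.21, adjusted p = 0.00460) passed it in limma and AGRN did not (0.10, adjusted p = 0.267), and COL7A1 passed it with median-of-ratios scaling too (-0.15, adjusted p = 0.0363). The path was not even, since FN1, TNC, COL7A1, HSPG2 and AGRN had their lowest Ad-GFP mean at 24 h.

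Under Ad-TEADi over the same hours FN1 fell by 1.92 ± 0.05 on the log2 scale (adjusted p = 1.9e-16) and COL4A1 by 0.62 ± 0.05 (adjusted p = 3.3e-13). HSPG2 rose by 0.93 ± 0.05 (adjusted p = 9.7e-18) and COL7A1 by 0.71 ± 0.06 (adjusted p = 7.8e-11), which made 4 of 7 called against 26.2% of all genes. COL4A2 at -0.57 ± 0.04 was just under the fold limit and reached it without Ad-TEADi replicate 3 of 12 h or replicate 1 of 48 h (-0.60 each). All 7 passed the adjusted p alone, against 68% of all genes. On TPM values COL7A1 (0.44) and COL4A1 (-0.56) were no longer called in this comparison, COL4A2 (-0.61) was, and AGRN missed the adjusted p (0.538). With no pseudocount on the TPM values COL4A1 stayed called and COL7A1 did not (0.45).

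Across the 18 libraries, which share the same 6 groups, Pearson's r of log2 levels was 0.91 between COL4A1 and COL4A2 and 0.93 between COL7A1 and TNC. FN1 went with COL4A2 (0.92) and against HSPG2 (-0.72), and AGRN with HSPG2 (0.78). The genes most like DCN over the 18 libraries, of 13409 compared, were IL36RN (0.995), an antagonist of an interleukin receptor, SDR9C7 (0.994), an enzyme of epidermal lipids, PLA2G4E (0.992), a phospholipase, PRR9 (0.990) and ALDH3B2 (0.988), an aldehyde dehydrogenase. IL36RN went from 0.213 CPM in Ad-GFP to 7.22 in Ad-TEADi at 48 h, and each of these genes was also near 0 elsewhere, so the likeness is set by the 3 Ad-TEADi libraries of 48 h. Most like COL4A1 were PMEPA1 (0.971), ANKLE2 (0.967), ZNF107 (0.967), DNAJA1 (0.967) and KRT80 (0.964). PMEPA1, a transmembrane regulator of TGF-beta signalling, went from 162 CPM at 12 h to 57.7 at 48 h in Ad-GFP and from 159 to 63.7 in Ad-TEADi.

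The other matrix genes were read from lists, and their counts at 48 h stand beside 12.6% of all tested genes called, 6.27% higher and 6.3% lower. Among 11 tested laminin and nidogen genes 1 rose and 1 fell, with a median log2 change of 0.13. NID1 rose from 4.41 ± 1.07 to 9.35 ± 0.783 CPM (0.95 ± 0.16) and NID2 fell from 3.89 ± 0.406 to 1.73 ± 0.0757 (-0.84 ± 0.12). Both encode nidogens, which bridge laminin and type IV collagen. Of 10 further basement membrane genes, 3 rose and 1 fell, with a median of 0.18. COL4A5 and COL4A6, which encode the alpha-5 and alpha-6 chains of type IV collagen, rose from 146 ± 5.53 to 271 ± 15.6 CPM (0.88 ± 0.05) and from 115 ± 6.78 to 173 ± 3.75 (0.59 ± 0.05). The difference of these changes from those of COL4A1 and COL4A2 was not tested. The COL4A6 call was lost without Ad-GFP replicate 1 (0.55) or Ad-TEADi replicate 3 (0.58), and that of COL18A1 (0.60 ± 0.10) without Ad-GFP replicate 2 (0.56), Ad-GFP replicate 3 (0.58) or Ad-TEADi replicate 1 (0.49). TINAGL1, a matricellular protein of basement membranes, fell from 279 ± 7.67 to 129 ± 10.8 CPM (-1.11 ± 0.05).

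Of the fibrillar collagens, 6 could be tested without the help of the Ad-TEADi libraries of 48 h, and of these 4 rose and 0 fell, with a median log2 change of 0.95. Chosen the same way, 5.41% of 13164 genes rose and the median was -0.04. COL5A3 rose from 8.20 ± 0.413 to 45.6 ± 3.10 CPM (2.34 ± 0.08), COL5A1 from 53.9 ± 2.70 to 123 ± 4.01 (1.17 ± 0.05), COL5A2 from 53.9 ± 2.20 to 107 ± 2.12 (0.98 ± 0.06) and COL1A1 from 20.4 ± 1.93 to 39.5 ± 1.49 (0.92 ± 0.07). The first 3 encode chains of type V collagen, which regulates fibril assembly. COL2A1, named after its value was seen, went from 0.458 to 2.85 CPM and was tested only through the Ad-TEADi libraries of 48 h, so its call among the 7 tested was set by the filter. Among 9 other collagens 2 rose, COL22A1 (1.20 ± 0.07) and COL6A1 (1.38 ± 0.15), and 3 fell, COL8A1 (118 ± 5.11 to 37.3 ± 2.48 CPM, -1.64 ± 0.06), COL9A2 (-0.83 ± 0.07) and COL13A1 (-1.01 ± 0.15, named after its value was seen).

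Of 9 other proteoglycans, SPOCK1 was the only call, from 0.651 ± 0.195 to 2.56 ± 0.434 CPM (1.11 ± 0.16). Matricellular and elastic fibre genes were split, with 5 rises and 5 falls among 25, or 20% each against 6.27% and 6.3% of all tested genes. TGFBI, an integrin-binding matrix protein induced by TGF-beta, rose from 264 ± 3.08 to 710 ± 8.14 CPM (1.42 ± 0.04) and ECM1 by 1.02 ± 0.09. FBLN1, FBLN2 and MFAP2 also rose (0.79, 0.76 and 0.59), and CTGF, THBS1 and FBN2 fell (-2.97, -1.81 and -1.09), all 6 named after their values were seen. The MFAP2 call was lost without Ad-GFP replicate 1 (0.57), Ad-GFP replicate 2 (0.58) or Ad-TEADi replicate 1 (0.52). MFAP5, a microfibril protein, fell from 149 ± 2.44 to 65.4 ± 3.70 CPM (-1.18 ± 0.05), and CYR61, a matricellular gene and an established YAP target, from 499 ± 16.2 to 158 ± 7.41 (-1.66 ± 0.08). In collagen folding and crosslinking 5 of 25 rose (20%) and 3 fell (12%). The rises included LEPREL1, a prolyl 3-hydroxylase, at 1.17 ± 0.06, P4HA2, a prolyl 4-hydroxylase subunit, at 0.67 ± 0.05 and the procollagen protease BMP1 at 0.66 ± 0.04, and the falls the lysyl hydroxylase PLOD2 (-0.85 ± 0.06). The other calls, named after their values were seen, were the rises of TLL1 (0.78) and P4HA3 (0.82) and the falls of LOX (-0.62), lost without Ad-TEADi replicate 2 (-0.55), and LOXL3 (-0.77). On TPM values, with the pseudocount of 1, the calls of LEPREL1, P4HA2, BMP1, PLOD2 and COL9A2 were lost, and the changes kept their direction. These 5 calls were kept on TPM values with no pseudocount. Some list genes, COL4A5, COL4A6, COL5A1, COL5A2 and COL8A1 among them, did not pass the filter on TPM values. Their calls were thus not checked in the TPM setting with the pseudocount of 1. With a pseudocount of 5, which shrinks the changes of low genes, the calls of COL4A6 (0.58), MFAP2 (0.56), FBLN2 (0.52), COL2A1 (0.52), COL18A1 (0.51), SPOCK1 (0.42), P4HA3 (0.32), NID2 (-0.40), COL13A1 (-0.37), LOX (-0.29) and LOXL3 (-0.28) were lost, again with the same direction.

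Of 17 matrix receptors, 2 rose and 0 fell at 48 h, 11.8% called against 12.6% of all tested genes. ITGB6, the epithelial integrin subunit that binds fibronectin and latent TGF-beta, rose from 136 ± 2.62 to 299 ± 12.5 CPM (1.13 ± 0.05), and ITGA5, a subunit of the main fibronectin receptor, from 576 ± 5.80 to 1002 ± 17.1 (0.80 ± 0.04). At 24 h, when 1.79% of all tested genes were called, the same lists gave 0 calls for laminins and nidogens, for the other basement membrane genes and for proteoglycans. Fibrillar collagens gave 1 rise (COL5A3, 1.11 ± 0.08) and other collagens 1 fall (COL8A1, -0.64 ± 0.06). Of the matricellular and elastic fibre genes 3 fell, CTGF (-1.81), CYR61 (-1.0001) and THBS1 (-0.65). In collagen folding and crosslinking P4HA3 rose (0.587, just over the fold limit), while PLOD2 (-0.69), LOX (-0.62), LOXL3 (-0.64) and TGM2 (-0.78) fell. TGM2 was not called at 48 h (-0.13). Among receptors ITGB6 (0.586, just over the fold limit) and ITGB8 (0.61) rose, and no gene of any list was called at 12 h. TGM2 and ITGB8 were named after their values were seen. The 24 h calls of list genes were not followed through the other settings.

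**Figure D5:**
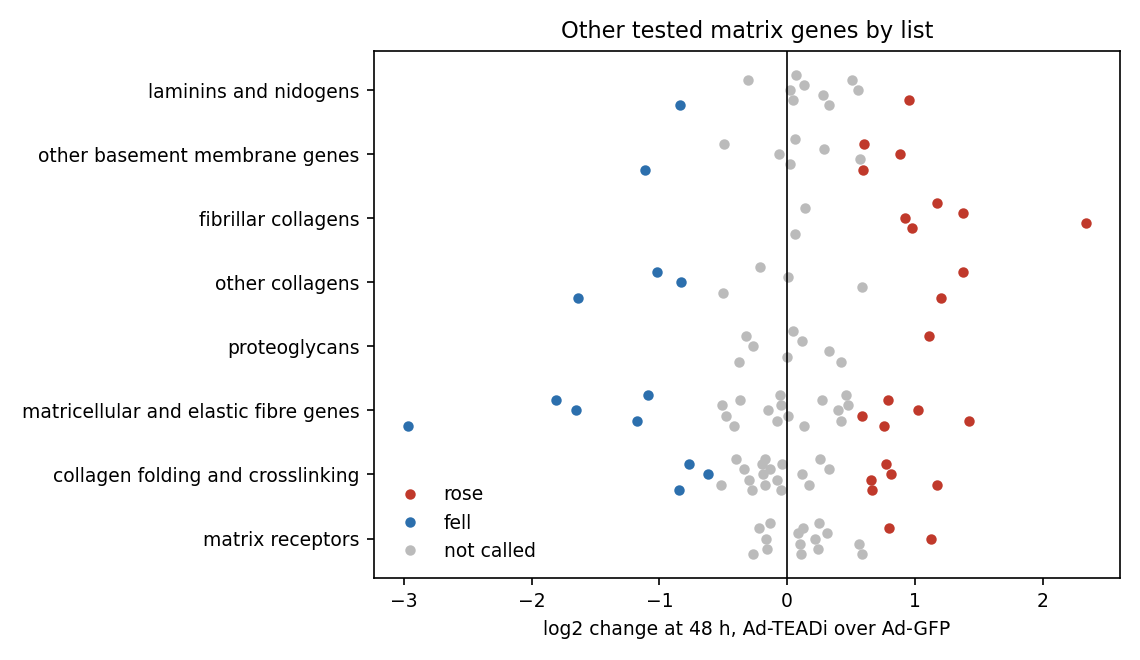
Log2 change at 48 h of Ad-TEADi over Ad-GFP for every other tested matrix gene, 1 point per gene and 1 line of points per list (vertical offsets only separate points), with rises in red, falls in blue and genes not called in grey. The fibrillar collagens hold 5 rises, COL2A1 among them, and no fall, COL5A3 being the farthest right at 2.34, while matricellular and elastic fibre genes hold 5 rises and 5 falls.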

How the data were processed

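RNA of N/TERT2G cells was sequenced for Ad-GFP and Ad-TEADi at 12, 24 and 48 h, with 3 libraries for each of 6 groups. The study's methods and processing notes name RNeasy extraction, a TruSeq mRNA library kit, Cutadapt, Trimmomatic 0.36, STAR (in different versions by source) and Partek Flow (8.0.19.0819 in the processing notes) on hg19, with genes of at least 8 reads kept. On strand in counting the sources used here are silent. The values deposited by the authors are TMM normalized CPM, in which each gene had 1 read added before scaling, and TPM. The TPM values were scaled by the authors over whole gene spans, introns included (7013 of 7048 genes with a mean of at least 20, within 1%), so levels of different genes were compared as CPM per kb of MANE Select exons (GENCODE v44lift37). The table also holds the authors' own comparisons (p-values, q-values, ratio and fold change), which were not used.

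Estimated reads were recovered as the value over the lowest value of the library, less 1. Of low estimates, 73.6% to 76.5% lay within 0.01 of a whole number, so no model of whole counts was fitted. At 14.2 to 26.7 M reads per library, 1 normalized CPM rests on 16.5 to 29.5 reads. Ratios of DCN reads were taken from pooled reads scaled by depth, with no interval, since DCN was chosen for its rise.

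Genes that reached 1 CPM in 3 or more libraries (13417) were fitted with limma 3.58.1 in R 4.3.3 on log2(value + 1), with a mean per group over 18 libraries and trended, robust moderation. P-values were adjusted by Benjamini-Hochberg over all tested genes, and calls needed both an adjusted p below 0.05 and a 1.5-fold change or more. The fit was tested on simulated data. Ratios were compared by exact permutation with SciPy 1.17.1. Replicates of 1 group differed by 1.70 to 2.93 times the variance of counting. Printed ends are the table's stop less 1, since 6633 of 13225 matched genes then equal GENCODE ends.

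The genes and lists were chosen with earlier results of these data known. By rule, the text names the 8 genes, up to 4 called genes per list (smallest adjusted p at 48 h), and the 5 genes most correlated with DCN and with COL4A1. Lists cover laminins and nidogens, other basement membrane genes, fibrillar and other collagens, proteoglycans, matricellular and elastic fibre genes, collagen folding and crosslinking, matrix receptors and markers of 6 cell types, and members outside the table were not analysed here. Alternatives varied the pseudocount, filter, unit, scaling, variance model, thresholds, block, libraries and model, and left out each library in turn.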

Additional observations from a re-analysis of the deposited data

Results flagged for a closer look

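FN1 drew attention because its response to Ad-TEADi differed between times by a test of the difference itself. The log2 change was -0.27 ± 0.05 at 24 h and -1.22 ± 0.05 at 48 h, and the difference of -0.95 ± 0.08 in limma had an adjusted p of 4.3e-08, against 6.06% of all tested genes called in that comparison. All 3 Ad-TEADi libraries lay below all 3 Ad-GFP libraries at both times. The Ad-GFP means were 12692 CPM at 24 h and 14685 at 48 h, and the Ad-TEADi means 10554 and 6287. Leaving out each library of these groups in turn gave differences from -0.998 to -0.881.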

How the results depend on the processing

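At 12 h the 6 called genes became 2 with a pseudocount of 5, 0 with a mean value of at least 10 (limma, 2436 genes at an unadjusted p under 0.05 in the reported fit), 2 on TPM values, and 1 each with no trend or robust option and with an adjusted p under 0.01 and a fold of 2. At 24 h the 240 became 384 with a pseudocount of 0.1, 95 with 5, 134 with the mean filter, 50 on TPM values, 36 with the stricter limits and 391 with voom on estimated reads. At 48 h the 1686 became 953 with a pseudocount of 5, 994 with the mean filter, 385 on TPM values and 505 with the stricter limits. For the difference of responses, 813 became 346, 399, 134 and 168 in the same order. For Ad-GFP over time 1824 became 981, 1115, 534 and 444, and for Ad-TEADi over time 3517 became 2286, 2281, 1217 and 1263. TPM values with no pseudocount, an alternative chosen after seeing the data, gave 2769 calls for Ad-GFP over time, 752 higher and 2017 lower against 1119 and 705 in the reported fit, and moved the median of all genes by -0.19. For Ad-TEADi over time they gave 1299 higher and 3528 lower against 1916 and 1601, with a median of -0.25. On TPM values with the pseudocount the splits were 202 and 332, and 357 and 860.

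Of the 7 genes, the 1 called in the difference of responses became 2 on TPM values, 2 with no pseudocount and 0 with the stricter limits. The 3 called for Ad-GFP over time became 1 on TPM values and 0 with the stricter limits, and the 4 for Ad-TEADi over time became 1 with the stricter limits. Directions turned only for changes that were not called. The TNC difference of responses was 0.000904 with a pseudocount of 5, 0.068 on TPM values, 0.062 with no pseudocount and 0.032 with median-of-ratios scaling, and that of HSPG2 was 0.048, 0.039 and 0.0087 in the last 3. The cause of these shifts was not tested.

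Leaving out 1 library gave 0 to 8 called genes at 12 h, 0 to 1 of the 7 genes at 24 h and 1 to 2 in the difference of responses. TNC ranged from -0.058 to 0.042 and HSPG2 from -0.064 to 0.0038 in that difference, COL4A1 from -0.096 to 0.0033 and COL4A2 from -0.063 to 0.020 at 24 h, and TNC from -0.068 to 0.010 for Ad-GFP over time. The 48 h change stayed between -1.26 and -1.19 for FN1 and between 0.98 and 1.02 for COL7A1. With replicate number as a block, calls were 6, 241 and 1694 genes at 12, 24 and 48 h and 2 of the 7 at 48 h, and no call of the 7 changed, though AGRN at 24 h (0.0308) and COL4A1 (0.0482) and COL4A2 (0.0365) in the difference of responses then passed the adjusted p alone in limma. Libraries of the same number were correlated between -0.11 and 0.09 in their deviations, and those of different numbers between -0.08 and 0.10. Pairing by number was not seen, and with 3 libraries per group this check cannot exclude it. Depth limits DCN in Ad-GFP to 0 to 5 reads per library.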
